A study of Rattus norvegicus with 8 samples.

Results

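Rat primordial germ cell-like cells, a culture model of the embryonic cells that give rise to eggs and sperm, were compared at 2 stages with the 2 pluripotent states they were made from, to describe the expression difference that holds across all 4 states. All 8 RNA sequencing libraries of the series enter: 4 of germ cell-like cells (PGCLC_d3 and PGCLC_d3ag3, 2 each) on one side, and 4 of pluripotent cells (ESC and EpiLC, 2 each) on the other. A gene was called separated when its value in each of the 4 libraries of one side lay above its value in each of the 4 libraries of the other. Of 13571 genes with at least 1 TPM (a read count scaled for gene length and library size) in at least 2 libraries, 5496 were separated, 3521 with the PGCLC side higher (25.9%) and 1975 with it lower (14.6%).

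Cells of 1 rat strain, Crlj:WI, labelled wild type, were used throughout, with a Nanos3-T2A-tdTomato reporter read in both PGCLC groups. ESC, embryonic stem cells, grew on mouse feeder cells with PD0325901 (1 µM, a MEK inhibitor), CHIR99021 (3 µM, a GSK3 inhibitor) and rat LIF (1000 U/ml). EpiLC, epiblast-like cells, were kept for 60 h with activin A (20 ng/ml), bFGF (12 ng/ml) and 1% KSR, a serum replacement. PGCLC_d3 had 3 days with BMP4 (500 ng/ml), SCF (100 ng/ml), EGF (50 ng/ml) and rat LIF (1000 U/ml). For PGCLC_d3ag3, 5000 PGCLC_d3 cells were aggregated for 3 days in N2B27 with 5% KSR with 50000 somatic cells that came from female gonads at E15.5 and had been depleted of c-KIT-positive cells. Both PGCLC groups were sorted for tdTomato, and no sort is described for ESC or EpiLC, so an effect of sorting and the difference between the sides cannot be told apart. No label says that the 2 libraries of a group came from separate cultures, and p-values then measure only a spread that may be technical. RNA was measured in bulk, so fewer cells of a type and less RNA per cell cannot be told apart.

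Germ cell fate is set in the epiblast of the mammalian embryo by BMP signals from neighbouring tissue. PRDM1, PRDM14 and TFAP2C form the core of the transcription factor network that then represses somatic genes, keeps part of the pluripotency network on and leads into genome-wide loss of DNA methylation. Naive pluripotent cells, here ESC, and formative cells, here EpiLC, differ from each other in many of the same genes. A difference from ESC alone or from EpiLC alone therefore mixes the germ cell programme with the step between the pluripotent states, and the separated genes are those for which both references give the same direction.

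Values are the deposited log2(TPM+1), printed as TPM for levels. Differences are the mean of the 2 PGCLC groups minus the mean of the 2 pluripotent groups on the log2(TPM+1) scale, which understates changes of genes with low values. They were tested with limma over the 13571 genes, with Benjamini-Hochberg adjustment and a threshold of 0.05. The test called 6606 genes higher in PGCLC (48.7%) and 4547 lower (33.5%), 82.2% in all, so a call by itself is the common outcome here. Separated genes that were also called numbered 3518 higher (25.9%) and 1973 lower (14.5%), and list counts below are read against these 2 shares. Separation and the test use the same 8 values, so the p of a separated gene is no independent support. A further 604 separated genes were under the filter and not tested. The split between higher and lower depends on scaling: after median-of-ratios scaling it was 2696 higher to 2722 lower, and after quantile normalization 2949 to 2586. Replicates correlated across genes at 0.9946 to 0.9975 (Pearson), and the first principal component, 51.1% of the variance, set the 2 sides apart. TPM keeps no read totals, so the depth behind each value is not given.

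**Figure D1:**
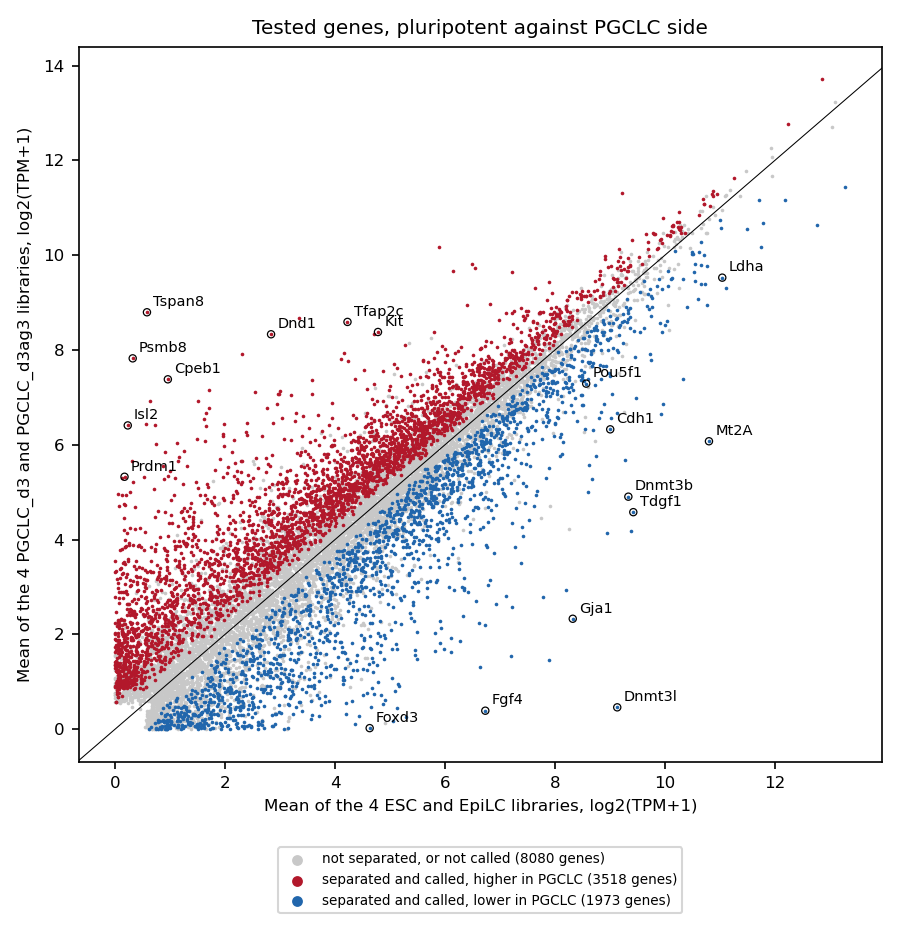
Mean log2(TPM+1) of the 4 ESC and EpiLC libraries (x axis) against the 4 PGCLC libraries (y axis) for 13571 tested genes, with separated and called genes in red (3518 higher in PGCLC) and blue (1973 lower). Tspan8, Psmb8 and Cpeb1 stand at the upper left, and Dnmt3l, Fgf4 and Gja1 at the lower right.

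The width of the separation was measured as the gap, the lowest value of the higher side minus the highest value of the lower side in log2(TPM+1). The median gap was 0.40 for genes higher in PGCLC and 0.37 for genes lower, and 641 (4.72%) and 360 (2.65%) genes had a gap of at least 1. At a gap of at least 2 there were 153 higher (1.13%) and 73 lower (0.538%). At the edge of the rule, 889 genes were separated by a gap under 0.1 and 1008 missed separation by under 0.1. Of the separated and called genes, 545 higher and 300 lower ones were under 1 TPM in all 4 libraries of the lower side. They passed the filter through their high side, and had to differ.

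Tspan8, which encodes a tetraspanin of the cell surface, had the widest gap among genes higher in PGCLC. Its level was 0 and 0.131 TPM in ESC, 0.539 and 1.85 in EpiLC, 400.4 and 380.4 in PGCLC_d3 and 498 and 509 in PGCLC_d3ag3. Every PGCLC library exceeded the highest pluripotent one by at least 7.06 on the log2 scale, and the difference was 8.22 (SE 0.157, adjusted p = 8.7e-11). Cpeb1 encodes a protein that binds the polyadenylation element of stored messenger RNAs and controls their translation in oocytes. It stood at 0.361 and 0.48 TPM in ESC, 1.19 and 2.24 in EpiLC, 143 and 154 in PGCLC_d3 and 182 and 187 in PGCLC_d3ag3, a gap of 5.48. Mogat2, a monoacylglycerol acyltransferase gene, ranged over 0.351 to 0.96 TPM in the pluripotent libraries and 97.8 to 149 in the PGCLC libraries. Isl2, a LIM homeodomain transcription factor gene, had a listed value of 0 in ESC, and was at 0.345 and 0.403 TPM in EpiLC, at 125 and 123 in PGCLC_d3 and at 56.2 and 57 in PGCLC_d3ag3. Among the 12 widest gaps were also Psmb8, Bmp7, Asic2, Cdh3, Npnt, Dnd1 and Psmb9. Asic2 encodes an acid-sensing ion channel (0.0943 to 0.482 against 40.4 to 56.7 TPM, pluripotent against PGCLC) and Npnt the matrix protein nephronectin (1.69 to 2.65 against 97.9 to 116 TPM). Neither came near the other side in any library.

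Dnmt3l had the widest gap among genes lower in PGCLC. It encodes a partner of the de novo DNA methyltransferases without catalytic activity of its own. Its level was 1121 and 1039.5 TPM in ESC, 331 and 255 in EpiLC, 0.856 and 0.123 in PGCLC_d3 and 0.455 and 0.178 in PGCLC_d3ag3, a gap of 7.11 and a difference of -8.67 (SE 0.151, adjusted p = 5.5e-11). All 4 PGCLC libraries were under 1 TPM. Fgf4, the growth factor by which pluripotent cells activate ERK in themselves, was at 138 and 148 TPM in ESC, 85.4 and 70.7 in EpiLC, 0.119 and 0.241 in PGCLC_d3 and 0.867 and 0.132 in PGCLC_d3ag3. Gja1, the connexin gene of the gap junctions that couple pluripotent cells, was at 358 and 391 TPM in ESC, 262 and 283 in EpiLC, 6.93 and 5.55 in PGCLC_d3 and 2.55 and 2.45 in PGCLC_d3ag3. Both were high in all 4 pluripotent libraries, and Fgf4 was under 1 TPM in all 4 PGCLC libraries. Akr7a3, an aldo-keto reductase gene, ranged over 279.5 to 303 TPM in the pluripotent libraries and 3.84 to 11.4 in the PGCLC libraries. Rragd, a Rag GTPase gene of amino acid sensing by mTORC1, ranged over 95.5 to 120.4 TPM in the pluripotent libraries and 2.61 to 4.23 in the PGCLC libraries. For both Trim2, a ubiquitin ligase gene (18.3 to 46.6 against 0.155 to 0.893 TPM, pluripotent against PGCLC), and Trim80 (14.7 to 77.7 against 0 to 0.249 TPM), all 4 PGCLC libraries were under 1 TPM. Zic5, Foxd3, Tdgf1, Nid1 and Mt2A complete the 12 and are described with their gene groups.

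**Figure D2:**
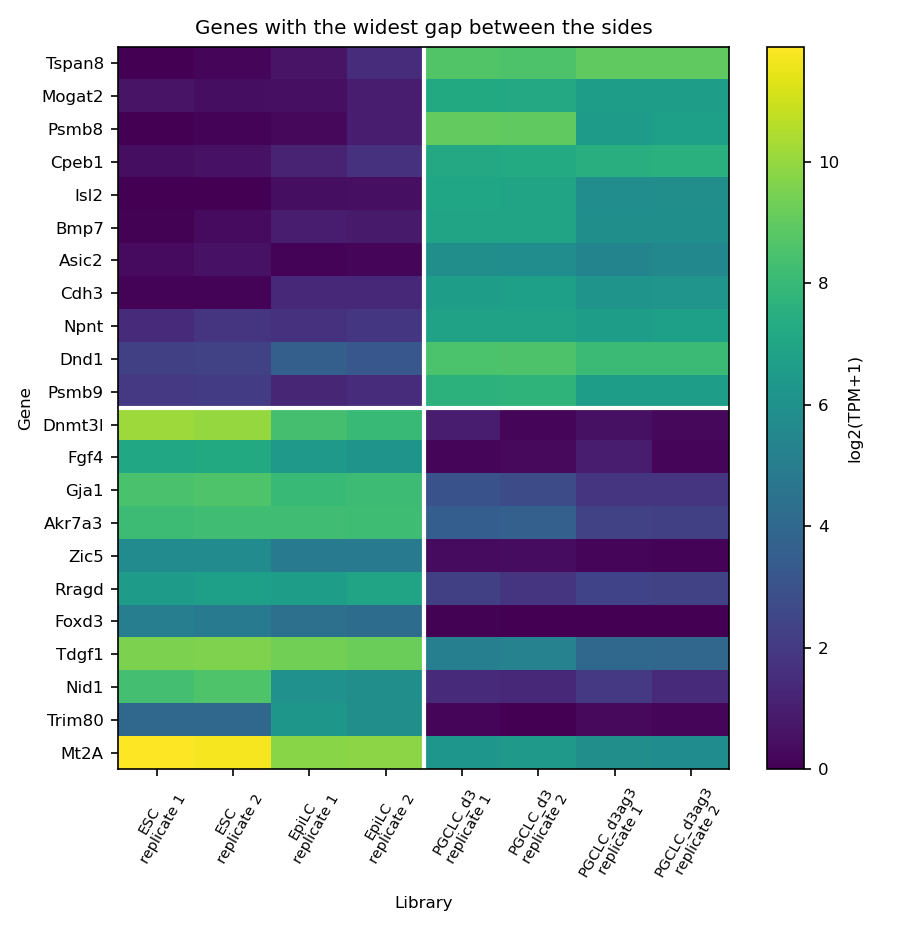
Log2(TPM+1) of the 11 genes with the widest gap in each direction (rows) in the 8 libraries (columns), with white lines between the sides and between the directions. Each row changes colour at the vertical line, and within a side the libraries differ less than the sides do.

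Among germ cell specification genes, 7 of 17 tested members were separated and higher in PGCLC and 2 of 17 lower, with a median difference of 1.79 against 0.16 over all tested genes. The 7 and the median include Nanos3, the gene used for the sort. Prdm1, which encodes the repressor BLIMP1, had 0.0331 and 0.0725 TPM in ESC, 0.142 and 0.266 in EpiLC, 67.6 and 65.4 in PGCLC_d3 and 22.2 and 23.4 in PGCLC_d3ag3. It was near 0 in both pluripotent states, and the difference was 5.15 (SE 0.0839, adjusted p = 4.4e-11). Tfap2c encodes a transcription factor of the same network. Its level of 34.8 and 37.2 TPM in ESC, 8.22 and 8.71 in EpiLC, 487 and 498 in PGCLC_d3 and 307 and 294 in PGCLC_d3ag3 shows a clear presence in ESC as well, and the PGCLC libraries lay 2.95 above the highest ESC library. Prdm14 was at 16.3 and 17.5 TPM in ESC, 0 and 0.123 in EpiLC, 88.7 and 83.4 in PGCLC_d3 and 39.7 and 35.4 in PGCLC_d3ag3. ESC carried a middle level of Prdm14 and EpiLC almost none, so that its distance from PGCLC depends on the pluripotent state (difference 3.73, SE 0.0758, adjusted p = 1.3e-10). Dnd1 encodes a germ cell RNA-binding protein that works with NANOS proteins on the decay of bound messenger RNAs. Its level was 3.71 and 3.87 TPM in ESC, 11.1 and 8.38 in EpiLC, 372 and 375 in PGCLC_d3 and 277 and 275 in PGCLC_d3ag3, with a gap of 4.52. Nanos3 was itself the basis of the sort, so its level (0.338 to 0.905 TPM in the pluripotent libraries and 10.7 to 17.2 in the PGCLC libraries) checks the gate and is not a finding.

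Kit encodes the receptor for SCF, a factor of the PGCLC_d3 medium on which germ cells depend for survival and migration. It was at 43.8 and 56.6 TPM in ESC, 12.8 and 15 in EpiLC, 398 and 399 in PGCLC_d3 and 267 and 286 in PGCLC_d3ag3, a difference of 3.60 (SE 0.0794, adjusted p = 2e-10). Cxcr4, the receptor that guides migrating germ cells towards the gonad, was listed at 0 in 3 of the 4 pluripotent libraries and reached 50.1 and 46.8 TPM in PGCLC_d3 and 21.7 and 16.3 in PGCLC_d3ag3. Of the germ cell surface and migration list, 6 of 17 tested members were separated and higher and 3 of 17 lower. The cadherins moved in opposite directions. Cdh3, P-cadherin, was higher in PGCLC, with 0.0666 to 1.56 TPM in the pluripotent libraries and 70 to 104 in the PGCLC libraries. Cdh1, E-cadherin, was lower, with 442 to 584 TPM in the pluripotent libraries and 59.1 to 106 in the PGCLC libraries and a difference of -2.68. Podxl, an anti-adhesive sialomucin of the cell surface (30.9 to 150.2 against 0.993 to 6.09 TPM, pluripotent against PGCLC), and the integrin gene Itga6 (8.77 to 32.5 against 0.739 to 3.52 TPM) were also lower in PGCLC. Both fell further between PGCLC_d3 and PGCLC_d3ag3.

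Tfcp2l1 and Rhox5 were the members of the specification list that were lower. Tfcp2l1, a transcription factor of naive cells, ranged over 3.75 to 31.9 TPM in the pluripotent libraries and 0.141 to 0.935 in the PGCLC libraries. Rhox5, an X-linked homeobox gene, was at 456 and 399 TPM in ESC, 486 and 479 in EpiLC, 32.2 and 31.2 in PGCLC_d3 and 325 and 318 in PGCLC_d3ag3. PGCLC_d3ag3 lay just under the pluripotent libraries and PGCLC_d3 far under them, and in a fit of 2 sides of 4 libraries, which counts the spread between states as error, Rhox5 was not called (adjusted p = 0.076). Copies in the Rhox family may share reads. Some well-known germ cell genes were not separated. Dppa3, also called Stella, was at 1312 and 1306 TPM in ESC, 38.7 and 26.8 in EpiLC, 375 and 389 in PGCLC_d3 and 467 and 509.9 in PGCLC_d3ag3: ESC lay above both PGCLC groups and EpiLC under them. Dazl and Ddx4, which mark later germ cells, were high in PGCLC_d3ag3 (763 and 806 TPM and 204 and 201 TPM). Their PGCLC_d3 values were under those of ESC and EpiLC, at 0.39 and 0.347 TPM for Dazl and 1.3 and 1.27 TPM for Ddx4. They therefore have no place in a difference shared by both PGCLC states.

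The germline programme beyond specification was separated in part. Of 26 tested meiosis genes, 8 were separated and higher and 1 lower, a share of higher genes close to the background. Spo11, which makes the double-strand breaks of meiotic recombination, was at 0 and 0 TPM in ESC, 0.205 and 0.106 in EpiLC, 3.77 and 3.98 in PGCLC_d3 and 5.79 and 2.88 in PGCLC_d3ag3, a low level in PGCLC and almost none in the pluripotent states. Mei4, a partner in break formation, ranged over 0.17 to 1.04 TPM in the pluripotent libraries and 3.53 to 7.02 in the PGCLC libraries. Brdt, a bromodomain gene of the testis, was separated narrowly: 0.29 and 0.318 TPM in ESC, 1.8 and 1.06 in EpiLC, 2.69 and 2.54 in PGCLC_d3 and 76.4 and 72.7 in PGCLC_d3ag3. Its level came mainly from PGCLC_d3ag3, and the fit of 2 sides did not call it (adjusted p = 0.057). Rec8, the meiotic cohesin gene, had the same shape (1.61 and 1.71 TPM in PGCLC_d3, 26.6 and 22.5 in PGCLC_d3ag3, adjusted p = 0.089 in the fit of 2 sides) and was not separated after quantile normalization. Tex15, a gene of piRNA-guided silencing and meiosis, was lower in PGCLC (99.4 to 130.1 TPM in the pluripotent libraries and 22.8 to 60.3 in the PGCLC libraries).

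Of the 24 tested members of the piRNA pathway and germ granule list, limma alone called 13 higher and 7 lower. Of these 24, 4 were separated and higher and 0 lower, a share of higher genes under the background of 25.9%. They were Henmt1, which methylates the ends of piRNAs (1.2 to 1.98 against 6.17 to 13.8 TPM, pluripotent against PGCLC), Tdrd3 (3.35 to 5.4 against 10.4 to 18 TPM), Mov10 (44.1 to 64.3 against 121 to 164 TPM) and Kif17 (0.802 to 1.36 against 2.8 to 4.5 TPM). Dmrt1, a transcription factor gene of germ cells and gonads, had a listed value of 0 in ESC and ranged over 9.76 to 33.8 TPM in PGCLC. Rbm46, a germ cell RNA-binding protein gene, was at 0 and 0.0224 TPM in ESC, 0.507 and 0.269 in EpiLC, 4.71 and 6.94 in PGCLC_d3 and 19.8 and 21.9 in PGCLC_d3ag3, higher in PGCLC_d3ag3 than in PGCLC_d3 within a separated pattern. Germline RNA-binding proteins as a list leaned the other way, with 3 of 25 tested members separated and higher and 7 of 25 lower. The 3 include Nanos3, the gene used for the sort. Lower members included Igf2bp1 (235 to 306 against 32.8 to 142 TPM) and Ybx1 (375 to 444 against 176 to 273 TPM), which bind messenger RNAs in many growing cells, and Celf1 (85.6 to 107 against 54.6 to 65.3 TPM).

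DNA methylation is copied at replication by DNMT1 with UHRF1 and laid down anew by DNMT3A and DNMT3B with DNMT3L, and germ cells of the embryo lose it across the genome. Of 17 tested genes of DNA methylation, 8 were separated and lower in PGCLC and 1 higher, with a median difference of -1.06. Both arms of the machinery were among the lower genes. Dnmt3b was at 155 and 143 TPM in ESC, 2666 and 2887 in EpiLC, 33.8 and 27.6 in PGCLC_d3 and 25.1 and 30 in PGCLC_d3ag3. EpiLC stood far above ESC, and all PGCLC libraries were under the ESC level, a gap of 2.05 although the overall difference was -4.43. Dnmt3a had 13.4 and 16.3 TPM in ESC, 196 and 205 in EpiLC, 2.72 and 2.7 in PGCLC_d3 and 1.43 and 1.88 in PGCLC_d3ag3, with the same order of the states. The maintenance genes differed less between ESC and EpiLC. Dnmt1 was at 109 and 123 TPM in ESC, 148 and 142 in EpiLC, 43.1 and 44.5 in PGCLC_d3 and 30 and 37.1 in PGCLC_d3ag3, a difference of -1.73 (SE 0.0694, adjusted p = 8.4e-09). Uhrf1 was at 34.4 and 36.2 TPM in ESC, 33.5 and 32 in EpiLC, 7.83 and 7.26 in PGCLC_d3 and 6.52 and 9.77 in PGCLC_d3ag3, a gap of 1.61 (adjusted p = 6e-08). The higher member, Mbd1, a reader of methylated DNA, differed by 0.37, was not called in the fit of 2 sides (adjusted p = 0.066) and was not separated after either scaling.

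Genes of DNA demethylation and base excision repair gave 7 of 18 tested members separated and higher and 3 of 18 lower. The 3 lower ones included Tet1 (25.8 to 41.3 TPM in the pluripotent libraries and 16.7 to 18 in the PGCLC libraries) and Tet3 (13.9 to 26.7 TPM in the pluripotent libraries and 1.68 to 3.73 in the PGCLC libraries), which encode enzymes that oxidise methylcytosine. Tet2, the third such gene, was not separated, at 69.4 and 78.8 TPM in ESC, 0.753 and 0.974 in EpiLC, 10.3 and 10.9 in PGCLC_d3 and 9.06 and 10.2 in PGCLC_d3ag3: ESC lay above PGCLC and EpiLC under it. The higher members were repair genes such as the uracil glycosylase Ung (150.1 to 195 TPM in the pluripotent libraries and 364 to 463 in the PGCLC libraries), the endonuclease Nthl1 (77.1 to 86.1 against 140.0 to 215 TPM) and Neil1 (3.14 to 4.77 against 8.91 to 16.9 TPM), together with Gadd45a (24.7 to 107 against 204 to 222 TPM), a stress-induced gene. Trim28, the corepressor that protects imprints through KRAB zinc finger proteins, was lower in PGCLC (1158 to 2093 TPM in the pluripotent libraries and 487 to 562 in the PGCLC libraries).

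General pluripotency factors were separated in one direction: 11 of 18 tested members were lower in PGCLC and 0 higher, with a median difference of -0.77. By limma alone, 12 were called lower and 5 higher. Pou5f1, which encodes OCT4, was at 517 and 516 TPM in ESC, 289.8 and 265 in EpiLC, 181 and 191 in PGCLC_d3 and 127 and 133 in PGCLC_d3ag3. It stayed above 100 TPM in all 8 libraries, and the highest PGCLC library lay 0.47 under the lowest EpiLC library on the log2 scale (difference -1.28, SE 0.0412, adjusted p = 2.1e-09). Tdgf1 encodes Cripto, the coreceptor of NODAL. It was at 737 and 765 TPM in ESC, 653 and 601 in EpiLC, 33.7 and 37.9 in PGCLC_d3 and 14.7 and 14.3 in PGCLC_d3ag3, a gap of 3.95. Foxd3, a transcription factor gene of the epiblast and neural crest, was at 32.6 and 27.5 TPM in ESC, 20.2 and 17.4 in EpiLC, 0.0585 and 0 in PGCLC_d3 and 0 and 0 in PGCLC_d3ag3. It was listed at 0 in 3 of the 4 PGCLC libraries. L1td1, an RNA-binding protein gene (424 to 632 against 127 to 210.3 TPM, pluripotent against PGCLC), and Dppa4 (74.5 to 176 against 13.7 to 31.9 TPM) were lower as well. Nanog, Sox2, Sall4 and Lin28a, by contrast, were not separated, since the ranges of the sides overlapped. Nanog was at 933 and 912 TPM in ESC, 5.55 and 4.24 in EpiLC, 148 and 169 in PGCLC_d3 and 142 and 157 in PGCLC_d3ag3, and Sox2 at 211 and 223 TPM in ESC, 26.5 and 21.2 in EpiLC, 217 and 228 in PGCLC_d3 and 195 and 182 in PGCLC_d3ag3. PGCLC held Sox2 near the ESC level and Nanog between ESC and EpiLC.

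Naive genes fell on both sides, with 3 of 19 tested members separated and higher and 4 of 19 lower. Besides Prdm14, the higher ones were Nr5a2 and Nr0b1, both nuclear receptor genes. Nr5a2 was at 2.96 and 3.01 TPM in ESC, 0.0792 and 0.123 in EpiLC, 31.6 and 31.2 in PGCLC_d3 and 24.7 and 32.7 in PGCLC_d3ag3. Nr0b1 was listed at 0 in 3 pluripotent libraries and was at 29 and 31.6 TPM in PGCLC_d3 but 1.36 and 1.75 in PGCLC_d3ag3. Zfp42, also called Rex1, was lower in PGCLC at 614 and 584 TPM in ESC, 84.5 and 74 in EpiLC, 3.67 and 4.48 in PGCLC_d3 and 9.42 and 7.74 in PGCLC_d3ag3. Spic, an ETS transcription factor gene, was listed at 0 in 3 of the 4 PGCLC libraries and ranged over 1.61 to 24.9 TPM in the pluripotent ones. Klf2 and Klf4 were not separated, since EpiLC overlapped PGCLC in both.

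Of 25 tested genes of the formative and primed epiblast, 8 were separated and lower and 2 higher. The zinc finger genes Zic5 (27.5 to 52.5 TPM in the pluripotent libraries and 0.0837 to 0.326 in the PGCLC libraries) and Zic2 (4.27 to 9.44 TPM in the pluripotent libraries and 0 to 0.178 in the PGCLC libraries) were lower. Otx2, which restrains entry into the germline in the mouse, was not separated because ESC (0.432 and 0.363 TPM) lay under PGCLC while EpiLC (74.6 and 73.9 TPM) lay above it. The higher genes were Cdh2, N-cadherin (0.84 to 4.26 TPM in the pluripotent libraries and 7.76 to 13.7 in the PGCLC libraries), and Pim2, a survival kinase gene, with 25.8 and 22.2 TPM in ESC, 301 and 343 in EpiLC, 1256 and 1283 in PGCLC_d3 and 585 and 692 in PGCLC_d3ag3.

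**Figure D3:**
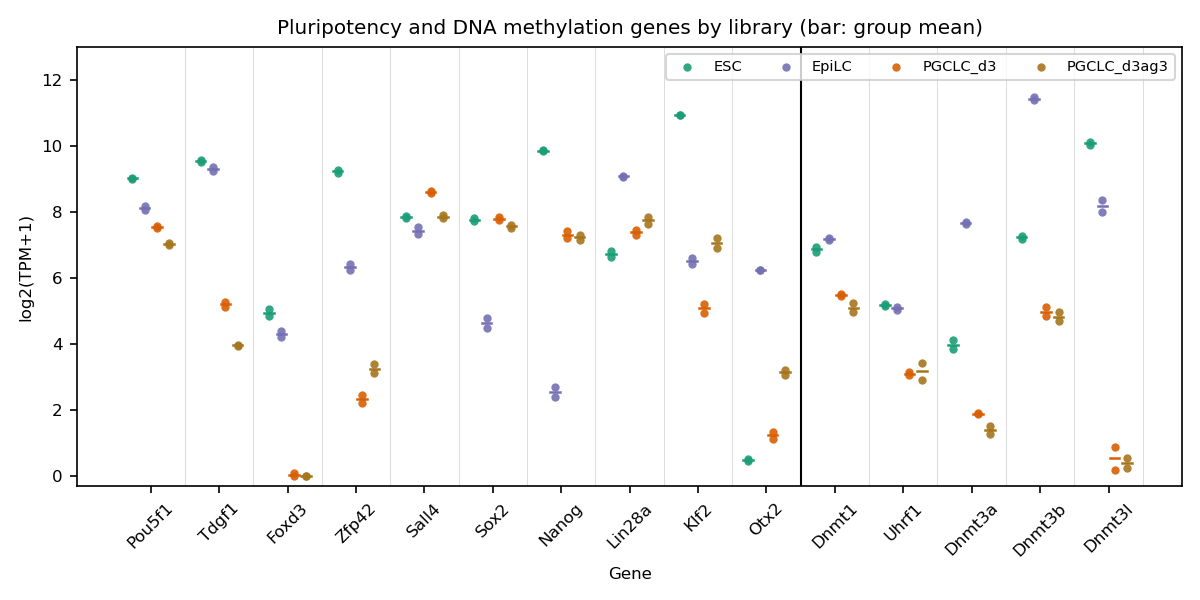
Log2(TPM+1) of 10 pluripotency genes (left of the black line) and 5 DNA methylation genes (right) in each library, with 2 points and a mean bar for each group. Pou5f1, Tdgf1, Foxd3 and Zfp42 and all 5 methylation genes have both PGCLC groups under both pluripotent groups, while for Sall4, Sox2, Nanog, Lin28a, Klf2 and Otx2 the ranges of the sides overlap.

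BMP ligands bind receptor pairs that phosphorylate SMAD1, SMAD5 and SMAD9, which switch on ID genes and the inhibitor genes that feed back on the pathway. BMP4 was in the PGCLC_d3 medium, and no BMP is named for the aggregates with gonadal cells. Among ligands, receptors and SMADs, 6 of 15 tested members were separated and higher and 1 of 15 lower. The ligand gene Bmp7 was at 0.0658 and 0.289 TPM in ESC, 0.878 and 0.791 in EpiLC, 123 and 122 in PGCLC_d3 and 59.8 and 59.4 in PGCLC_d3ag3, a gap of 5.01. Fst, which encodes the activin-binding inhibitor follistatin, ranged over 0.212 to 0.3 TPM in the pluripotent libraries and 2.12 to 6.14 in the PGCLC libraries. The receptor gene Acvr2b (7.06 to 12.7 against 22.2 to 28.5 TPM, pluripotent against PGCLC) and Smad5 (25.1 to 28.7 against 35.6 to 41.2 TPM) were higher, and Smurf1, a ubiquitin ligase gene that limits SMADs, was lower (39.8 to 83.7 against 14.4 to 16.1 TPM).

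Of the BMP target genes, 11 of 17 tested members were separated and higher and 0 lower, with a median difference of 2.29. By limma alone, 15 were called higher and 1 lower. Smad6, an inhibitory SMAD gene, was at 0.796 and 0.786 TPM in ESC, 0.856 and 0.851 in EpiLC, 51.7 and 58.3 in PGCLC_d3 and 39.2 and 37.5 in PGCLC_d3ag3. The 4 pluripotent libraries were all under 1 TPM, and both PGCLC groups stood well above them (difference 4.69, SE 0.0792, adjusted p = 5.1e-11). Id1 was at 3.42 and 2.33 TPM in ESC, 13.4 and 17.3 in EpiLC, 278 and 318 in PGCLC_d3 and 59 and 59 in PGCLC_d3ag3. It was lower in PGCLC_d3ag3 than in PGCLC_d3 but still above EpiLC. Id3 ranged over 12.7 to 341 TPM in the pluripotent libraries, with ESC at 341 and 322, and 756 to 905 TPM in PGCLC. Hey1, a repressor gene that answers to BMP and Notch, ranged over 0.519 to 1.31 TPM in the pluripotent libraries and 45 to 68.9 in the PGCLC libraries. Id4 was at 1.99 and 1.51 TPM in ESC, 1.58 and 1.67 in EpiLC, 30.4 and 36.2 in PGCLC_d3 and 7.67 and 8.09 in PGCLC_d3ag3.

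WNT genes gave 9 of 25 tested targets and feedback genes separated and higher and 3 of 25 lower. Nkd1, a cytoplasmic inhibitor of the pathway, was at 1.92 and 1.75 TPM in ESC, 0.805 and 1.16 in EpiLC, 65.1 and 58.1 in PGCLC_d3 and 18.9 and 21 in PGCLC_d3ag3. Notum, a secreted enzyme that inactivates WNT, was at 0.27 and 0.367 TPM in ESC, 0.0996 and 0.309 in EpiLC, 47.6 and 55 in PGCLC_d3 and 2.53 and 3.95 in PGCLC_d3ag3, mostly from PGCLC_d3. Dkk1, a secreted antagonist, ranged over 0 to 0.0898 TPM in the pluripotent libraries and 3.02 to 4.53 in the PGCLC libraries, and Tcf7, a transcription factor of the pathway, over 5.35 to 6.93 TPM in the pluripotent libraries and 40.9 to 52.3 in the PGCLC libraries. The lower members were the antagonist Sfrp1 (4.37 to 24.1 against 1.15 to 2.19 TPM, pluripotent against PGCLC), Lef1 (64.3 to 109 against 50.5 to 58.3 TPM) and the cyclin Ccnd1 (70.8 to 306 against 1.16 to 15.48 TPM). ESC grew with a GSK3 inhibitor, which activates WNT signalling, and EpiLC and PGCLC_d3 media name none.

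FGF and ERK genes were separated and higher in 6 of 25 tested members and lower in 2 of 25, the higher share under the background. The lower ones were the ligand gene Fgf4 and the receptor gene Fgfr4 (0.681 to 1.16 against 0.115 to 0.348 TPM, pluripotent against PGCLC). Among the higher ones, the receptor gene Fgfr2 was at 0.408 and 0.199 TPM in ESC, 2.15 and 5.01 in EpiLC, 55.4 and 61 in PGCLC_d3 and 56.1 and 55.8 in PGCLC_d3ag3, and Fgfr3 ranged over 1.61 to 5.68 TPM in the pluripotent libraries and 32.7 to 62.7 in the PGCLC libraries. Spry1, a feedback inhibitor of the pathway, was at 1.05 and 1.11 TPM in ESC, 25.2 and 24.6 in EpiLC, 127 and 121 in PGCLC_d3 and 62.3 and 59.1 in PGCLC_d3ag3. Of the NODAL and activin list, 4 of 17 tested members were separated and higher and 3 of 17 lower. Next to Tdgf1 the lower ones were the ligand gene Gdf3 (42 to 641 TPM in the pluripotent libraries and 12.3 to 27.2 in the PGCLC libraries) and the corepressor gene Tgif1 (62.5 to 103 TPM in the pluripotent libraries and 1.43 to 8.64 in the PGCLC libraries), and the higher ones were the receptor genes Acvr1b (2.87 to 5.47 against 8.42 to 9.71 TPM) and Acvr2b, Smad2 (17 to 20.9 against 25 to 35.4 TPM, not separated after either scaling) and Fst.

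For LIF and STAT3, 3 of 17 tested members were separated and higher and 2 of 17 lower. The inhibitor gene Socs1 was at 11.8 and 12.1 TPM in ESC, 84 and 86.7 in EpiLC, 262 and 261 in PGCLC_d3 and 158 and 175 in PGCLC_d3ag3. For the SCF receptor and PI3K list the counts were 6 of 25 and 5 of 25, both near the background, and 4 and 7 after median-of-ratios scaling. Pik3cd, the PI3K catalytic subunit best known from leukocytes, had 0.184 and 0.329 TPM in ESC, 2.94 and 2.63 in EpiLC, 107 and 102 in PGCLC_d3 and 34.6 and 44.9 in PGCLC_d3ag3. Its gap of 3.18 was wider than that of Kit (2.22). Inpp5d, a phosphatase gene that opposes PI3K, was lower (9.41 to 17.2 TPM in the pluripotent libraries and 2.56 to 3.18 in the PGCLC libraries), as was the translation repressor gene Eif4ebp1 (874 to 1014 TPM in the pluripotent libraries and 209.7 to 689.7 in the PGCLC libraries).

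Cells cut proteins into peptides with the proteasome, carry the peptides into the endoplasmic reticulum with the TAP1-TAP2 transporter and load them on class I molecules of the major histocompatibility complex. PSMB8, PSMB9 and PSMB10 replace the constitutive catalytic subunits in the immunoproteasome, and interferon is the usual inducer of the set. Of 18 tested genes of this list, 9 were separated and higher in PGCLC and 1 lower, with a median difference of 1.56. Tap2, Psmb8, Tap1 and Psmb9 are consecutive genes in RefSeq, and all 4 were separated. Their start windows in RefSeq (build GRCr8, which is not the build of the deposited table), 250 bases before and 50 after the start, were searched on both strands for GAAA, 2 bases of any kind and GAAA again, the core of the element bound by interferon regulatory factors. The windows of the 3 that hold a match are shown 5′ to 3′ on the gene's strand, with the matches in capitals.
Tap2, chr20:4652247-4652546, strand minus: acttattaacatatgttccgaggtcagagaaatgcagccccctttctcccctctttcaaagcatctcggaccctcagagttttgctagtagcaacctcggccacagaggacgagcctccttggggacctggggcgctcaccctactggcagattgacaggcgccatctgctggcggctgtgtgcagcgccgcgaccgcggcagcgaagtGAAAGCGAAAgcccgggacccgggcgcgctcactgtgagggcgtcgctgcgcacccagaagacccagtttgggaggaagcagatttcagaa
Psmb8, chr20:4656982-4657281, strand minus: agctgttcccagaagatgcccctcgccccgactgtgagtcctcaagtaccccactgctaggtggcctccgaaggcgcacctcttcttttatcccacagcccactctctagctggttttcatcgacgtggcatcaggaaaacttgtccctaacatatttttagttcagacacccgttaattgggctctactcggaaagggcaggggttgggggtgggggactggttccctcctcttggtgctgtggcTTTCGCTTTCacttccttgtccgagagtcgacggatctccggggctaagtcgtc
Tap1, chr20:4668494-4668793, strand minus: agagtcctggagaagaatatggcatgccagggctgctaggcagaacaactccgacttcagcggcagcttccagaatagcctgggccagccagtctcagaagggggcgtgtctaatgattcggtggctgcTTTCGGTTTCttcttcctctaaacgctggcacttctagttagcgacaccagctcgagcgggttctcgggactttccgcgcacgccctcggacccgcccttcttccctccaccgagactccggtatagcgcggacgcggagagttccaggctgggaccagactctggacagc
Tap2 holds the element in the direction of the gene, and Psmb8 and Tap1 hold its reverse complement. The Psmb9 window holds no match and shares 44 bases with that of Tap1, which is read in the opposite direction. Of all 33469 RefSeq windows of this length, 3.92% hold a match. Of the 22 separated and higher genes of this list and the interferon list together, 16 have a window, and 11 of the 16 hold a match. The lists hold genes known for interferon induction, and no share was taken of their other members. The share of matches therefore says nothing about the difference between the sides. A match is a description of the letters and does not show a bound site.

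Psmb8 was at 0 and 0.0807 TPM in ESC, 0.19 and 0.883 in EpiLC, 530.2 and 512 in PGCLC_d3 and 92.2 and 102 in PGCLC_d3ag3. Both PGCLC_d3 libraries exceeded 500 TPM, PGCLC_d3ag3 was lower, and no pluripotent library reached 1 TPM (difference 7.50, SE 0.128, adjusted p = 5.1e-11, gap 5.63). Psmb9 was at 2.87 and 3.28 TPM in ESC, 1.4 and 1.83 in EpiLC, 197 and 209 in PGCLC_d3 and 102 and 95.9 in PGCLC_d3ag3, a difference of 5.45 (SE 0.0749, adjusted p = 1.9e-11). Of the transporter genes, Tap2 was at 0.247 and 0.433 TPM in ESC, 1.91 and 2.01 in EpiLC, 106 and 99.9 in PGCLC_d3 and 17.4 and 17.3 in PGCLC_d3ag3. Tap1, chosen after its values were seen, was at 0.581 and 1.31 TPM in ESC, 1.27 and 0.986 in EpiLC, 63.5 and 57 in PGCLC_d3 and 6.31 and 9.09 in PGCLC_d3ag3. In both, PGCLC_d3ag3 stood between PGCLC_d3 and the pluripotent libraries. Psme1, an activator subunit of the proteasome, was at 149 and 154 TPM in ESC, 21.9 and 22.6 in EpiLC, 1522 and 1539 in PGCLC_d3 and 890.4 and 823 in PGCLC_d3ag3, and ESC here lay above EpiLC. The genes Psme2, Tapbp and Irf1, also named after their values were seen, ranged over 40.2 to 205, 7.01 to 43.3 and 6.71 to 42.7 TPM in the pluripotent libraries and 670.4 to 1066, 106 to 526 and 122 to 372 TPM in PGCLC. Irf1 encodes a transcription factor known to activate genes of this set, and its part in these values was not tested.

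Not every part of the pathway followed. Psmb10, chosen after its values were seen, was at 36.8 and 36.3 TPM in ESC, 73.3 and 55.1 in EpiLC, 204 and 184 in PGCLC_d3 and 4.42 and 4.34 in PGCLC_d3ag3: highest in PGCLC_d3 and lowest in PGCLC_d3ag3. B2m, the light chain of class I molecules, also chosen after its values were seen, was at 201 and 212 TPM in ESC, 37.9 and 29 in EpiLC, 86.7 and 81 in PGCLC_d3 and 16.8 and 14.9 in PGCLC_d3ag3. PGCLC_d3 lay between ESC and EpiLC and PGCLC_d3ag3 under all of them, so neither gene was separated. Canx, a chaperone gene of the endoplasmic reticulum, was lower in PGCLC (420.4 to 496 TPM in the pluripotent libraries and 274 to 368 in the PGCLC libraries).

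**Figure D4:**
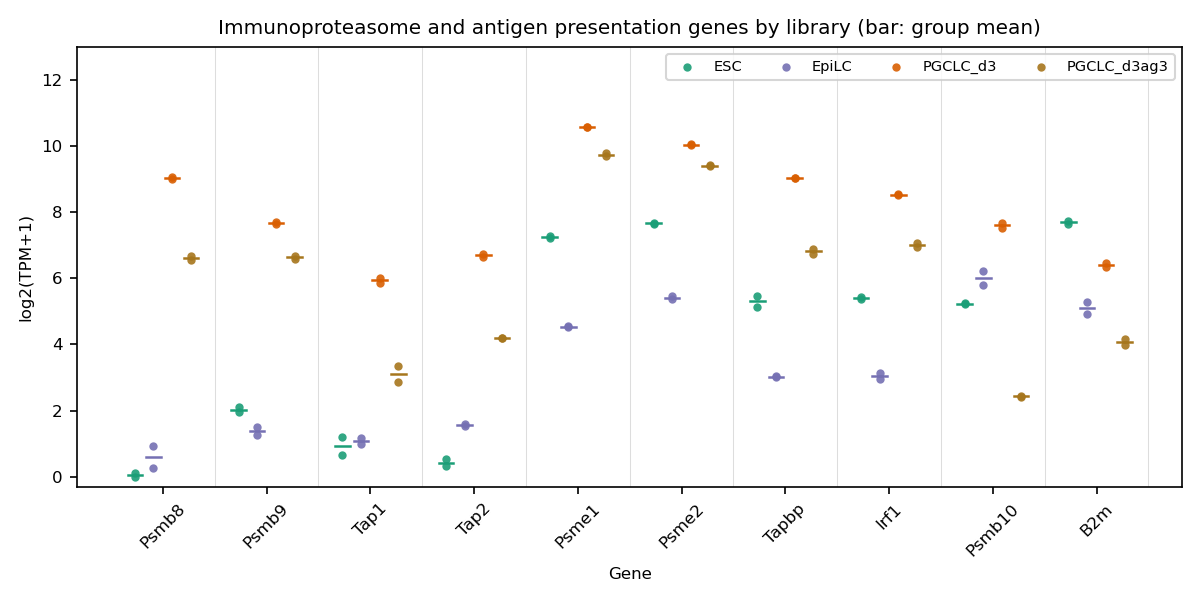
Log2(TPM+1) of 10 genes of the immunoproteasome and antigen presentation in each library, with 2 points and a mean bar for each group. For the first 8 genes both PGCLC groups lie above both pluripotent groups, with PGCLC_d3 on top, while Psmb10 and B2m have PGCLC_d3ag3 at the bottom.

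Interferon response genes gave 14 of 24 tested members separated and higher and 0 lower, with a median difference of 1.50. By limma alone, 18 were called higher and 6 lower. After quantile normalization, 14 were separated and higher and 1 lower. Isg15, a ubiquitin-like modifier, was at 14.3 and 16.4 TPM in ESC, 2.64 and 2.65 in EpiLC, 151 and 148 in PGCLC_d3 and 99.1 and 78 in PGCLC_d3ag3. Ddx58, the RNA sensor RIG-I, was at 6.79 and 7.74 TPM in ESC, 0.503 and 0.951 in EpiLC, 60.5 and 61.9 in PGCLC_d3 and 42.7 and 43.3 in PGCLC_d3ag3. ESC stood above EpiLC in both genes and under both PGCLC groups. Mx2, a dynamin-like antiviral GTPase gene, ranged over 0.639 to 1.35 TPM in the pluripotent libraries and 17.2 to 43.4 in the PGCLC libraries, and Ifi44 over 0 to 0.0295 TPM in the pluripotent libraries and 2.69 to 6.93 in the PGCLC libraries. The sum of 13 blood and endothelium markers was 23.2 to 26.8 TPM in PGCLC_d3, against 111 to 114 in ESC, 58.3 to 63.2 in EpiLC and 176 to 182 in PGCLC_d3ag3. Most of it was Pecam1, which pluripotent and germ cells also express, at 103 and 105 TPM in ESC, 50.8 and 47.7 in EpiLC, 18.4 and 17.3 in PGCLC_d3 and 135 and 138 in PGCLC_d3ag3. The endothelial genes Cdh5 and Kdr were highest in PGCLC_d3, at 1.67 and 1.71 and at 0.833 and 0.981 TPM, against at most 0.364 and 0.308 in the other groups. Other endothelial markers did not follow. Tek was highest in EpiLC (0.225 and 0.28 TPM), and the PGCLC_d3 values of Esam and Vwf overlapped those of EpiLC. Cd34 was listed at 0 in all PGCLC libraries, and Emcn at 0 in every library. The pan-leukocyte gene Ptprc did not exceed 0.0541 TPM in any library. Other blood markers differed from it. Cd68 was separated and lower in PGCLC (6.71 to 10.5 TPM in the pluripotent libraries and 0.276 to 2.27 in the PGCLC libraries). Csf1r was highest in PGCLC_d3ag3 (0.951 and 0.916 TPM), and Lyz2 was highest in ESC replicate 2 (1.02 TPM). The part of such cells in the interferon result was not tested.

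Of 30 tested genes of glycolysis and pyruvate metabolism, 12 were separated and lower and 2 higher, with a median difference of -0.69. Ldha, which turns pyruvate into lactate, was at 2215 and 2171 TPM in ESC, 2029 and 2026 in EpiLC, 741 and 732 in PGCLC_d3 and 719 and 752 in PGCLC_d3ag3. The values differed little within either side, and PGCLC lay 1.43 under the pluripotent libraries (difference -1.52, SE 0.0327, adjusted p = 1.8e-10). Pgk1 had 1942 and 1950.0 TPM in ESC, 1523 and 1550.0 in EpiLC, 373 and 369.9 in PGCLC_d3 and 633 and 666 in PGCLC_d3ag3, and Pgam1 ranged over 2110.4 to 2493 TPM in the pluripotent libraries and 541 to 754 in the PGCLC libraries. Gapdh, often used as a reference gene, was itself separated at 956 and 652 TPM in ESC, 1159 and 1285 in EpiLC, 262 and 315 in PGCLC_d3 and 372 and 392 in PGCLC_d3ag3. Hk2, which commits glucose to the pathway, ranged over 61.5 to 131 TPM in the pluripotent libraries and 10.9 to 32.3 in the PGCLC libraries. The higher members act on pyruvate at the mitochondrion: Pdk2, a kinase gene that inhibits pyruvate dehydrogenase (2.65 to 5.28 against 13.6 to 18.4 TPM, pluripotent against PGCLC), and Pdhb, a subunit of that enzyme (166 to 203 against 276 to 384 TPM).

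Of the serine, threonine and one-carbon genes, 9 of 24 tested members were separated and lower and 1 of 24 higher. The glycine cleavage system was among them. Gldc, its decarboxylase, was at 71.1 and 78.5 TPM in ESC, 108 and 102 in EpiLC, 13.5 and 12.7 in PGCLC_d3 and 14.3 and 15.3 in PGCLC_d3ag3, Amt ranged over 218 to 327 TPM in the pluripotent libraries and 80.4 to 114 in the PGCLC libraries, and Gcsh over 344 to 395 TPM in the pluripotent libraries and 141 to 185 in the PGCLC libraries. The glutamine transporter gene Slc1a5 ranged over 125 to 148 TPM in the pluripotent libraries and 19.2 to 45.2 in the PGCLC libraries. Mtr, methionine synthase, was the higher member (4.52 to 7.43 TPM in the pluripotent libraries and 11.5 to 13.8 in the PGCLC libraries). Cholesterol and lipid genes gave 6 of 30 tested members lower and 1 of 30 higher. Acat2 (171 to 198 against 35.2 to 86.4 TPM, pluripotent against PGCLC) and the fatty acid synthase gene Fasn (193 to 245 against 48.5 to 125 TPM) were among the lower ones.

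Metallothioneins are small proteins that bind zinc and copper, and their genes are switched on by metals through a short repeated element. Mt2A and Mt1 were both lower in PGCLC, Mt1 being chosen after its values were seen. Their RefSeq windows (build GRCr8) are shown with each TGCNCNC in capitals on either strand. The core of the metal response element, TGCRCNC (R is A or G), is narrower, so a match need not be a core.
Mt2A, chr19:10838659-10838958, strand minus: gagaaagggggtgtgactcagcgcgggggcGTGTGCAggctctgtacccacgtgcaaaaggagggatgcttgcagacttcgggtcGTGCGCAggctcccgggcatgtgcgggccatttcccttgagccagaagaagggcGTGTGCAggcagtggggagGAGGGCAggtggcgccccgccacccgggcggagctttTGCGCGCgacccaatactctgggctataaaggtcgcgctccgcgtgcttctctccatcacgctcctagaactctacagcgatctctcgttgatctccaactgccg
Mt1, chr19:10832926-10833225, strand minus: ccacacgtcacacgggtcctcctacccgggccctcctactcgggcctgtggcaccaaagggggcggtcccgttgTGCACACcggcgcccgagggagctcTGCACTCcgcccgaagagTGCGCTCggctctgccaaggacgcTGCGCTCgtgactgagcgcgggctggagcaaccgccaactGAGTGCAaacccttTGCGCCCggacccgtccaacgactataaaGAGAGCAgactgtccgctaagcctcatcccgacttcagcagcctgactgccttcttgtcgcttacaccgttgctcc
The Mt2A window holds 5 matches and the Mt1 window 7. At least 1 match occurs in 49.6% of the 33469 windows, and at least 5 in 0.669%. Mt2A was at 3786 and 3394 TPM in ESC, 866 and 907 in EpiLC, 74.7 and 81.5 in PGCLC_d3 and 58.5 and 54.3 in PGCLC_d3ag3, and Mt1 at 329 and 298 TPM in ESC, 412 and 474 in EpiLC, 116 and 118 in PGCLC_d3 and 51.6 and 57.1 in PGCLC_d3ag3. ESC was highest for Mt2A and EpiLC for Mt1, and PGCLC_d3ag3 was lowest for both. Related copies of these genes may share reads, so the level of each is uncertain.

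Cell cycle genes moved in both directions. Of 33 tested cyclins, CDKs and inhibitors, 6 were separated and higher and 10 lower. Ccnd1, cyclin D1, was at 275 and 306 TPM in ESC, 70.8 and 78.7 in EpiLC, 15.48 and 14.9 in PGCLC_d3 and 1.25 and 1.16 in PGCLC_d3ag3, in descending order over the 4 states. Ccne1, cyclin E1, was at 121 and 112 TPM in ESC, 279 and 256 in EpiLC, 33.7 and 35.2 in PGCLC_d3 and 31.4 and 35.1 in PGCLC_d3ag3. The CDK inhibitor genes parted, Cdkn1a falling (12.4 to 27.8 TPM in the pluripotent libraries and 2.25 to 6.53 in the PGCLC libraries) and Cdkn1c rising (0.666 to 2.05 TPM in the pluripotent libraries and 3.36 to 10.4 in the PGCLC libraries). Replication and mitosis genes gave 10 of 40 tested members separated and higher and 9 of 40 lower, and 7 and 11 after median-of-ratios scaling. The higher members named by the rule serve mitosis: the centromere histone Cenpa (25.6 to 46.1 against 160.5 to 250.4 TPM, pluripotent against PGCLC), Nuf2 (95.5 to 104 against 173 to 224 TPM), Kif11 (81.7 to 98.7 against 130.5 to 168 TPM) and Aurkb (165 to 188 against 259.8 to 302 TPM). The lower members so named serve replication or its nucleotides: Cdc6 (93.2 to 144 against 41 to 53.1 TPM), Mcm5 (389 to 425 against 208 to 272 TPM), Rrm1 (248 to 275 against 106 to 175 TPM) and Rrm2 (254 to 355 against 129.9 to 165 TPM). The rule names only the widest gaps of a list, so the other separated members are not described by these genes.

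Of the p53 targets, 6 of 25 tested members were separated and higher and 4 of 25 lower, a lean that turned to 4 and 7 with median-of-ratios scaling and 5 and 8 with quantile normalization. Next to Cdkn1a, Phlda3 (84.9 to 123 TPM in the pluripotent libraries and 6.78 to 36.6 in the PGCLC libraries) and Ccng1 (157 to 274 TPM in the pluripotent libraries and 30.4 to 64.6 in the PGCLC libraries) were lower, while Perp, a desmosome and apoptosis gene, was at 15.7 and 21.1 TPM in ESC, 28.3 and 25.1 in EpiLC, 184 and 182 in PGCLC_d3 and 198 and 198 in PGCLC_d3ag3. In the MYC family list 6 of 18 tested members were lower and 1 of 18 higher. The higher one was Mycl (2.3 to 5.37 TPM in the pluripotent libraries and 26.5 to 59 in the PGCLC libraries), and Myc and Mycn were not separated. Myc was at 15.2 and 18 TPM in ESC, 58.4 and 59.4 in EpiLC, 23.5 and 26.2 in PGCLC_d3 and 2 and 2.9 in PGCLC_d3ag3.

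Of the collagens, laminins and related matrix genes, 9 of 22 tested members were separated and lower in PGCLC and 2 of 22 higher. By limma alone, 14 were called lower and 7 higher. Nid1, a basement membrane linker, was at 319 and 391 TPM in ESC, 63.4 and 57.2 in EpiLC, 1.65 and 1.48 in PGCLC_d3 and 2.95 and 1.8 in PGCLC_d3ag3. Fn1, fibronectin, was at 630.2 and 869 TPM in ESC, 211 and 199.9 in EpiLC, 62.2 and 61.1 in PGCLC_d3 and 34.5 and 36.5 in PGCLC_d3ag3, and Lamb1 at 68.2 and 72.2 TPM in ESC, 46.5 and 45.3 in EpiLC, 22.3 and 20.4 in PGCLC_d3 and 2.26 and 2.88 in PGCLC_d3ag3. ESC was the highest state for all 3. Col1a1 ranged over 6.43 to 14.5 TPM in the pluripotent libraries and 0.312 to 1.8 in the PGCLC libraries. Fibroblast and feeder markers share Fn1 with this list, and Fn1 made up most of their sum in ESC and EpiLC. The sum over 16 genes was 749 to 989 TPM in ESC and 291 to 329 in EpiLC. It was 111 to 119 in PGCLC_d3 and 72.7 to 77.2 in PGCLC_d3ag3. Of 13 tested markers, 4 were separated and lower, Fn1 among them, and limma alone called 10 lower and 2 higher. Between ESC and EpiLC, Dcn rose (0.261 and 0.287 to 9.61 and 15.7 TPM). Fbln1 fell (81.4 and 89.1 to 14.9 and 16.6 TPM). ESC grew on mouse feeders, and the part of feeder cells in the matrix result was not tested. The gonadal somatic marker sum was 63 to 66.7 TPM in PGCLC_d3ag3, 66.6 to 77.3 in PGCLC_d3, 64 to 78.9 in ESC and 32.6 to 35 in EpiLC. Kitlg was the largest part of it in ESC and PGCLC_d3ag3, with 52.4 and 65.5 and 36.7 and 23.9 TPM. Single markers moved both ways between the PGCLC groups: of 13 tested, limma called 6 higher in PGCLC_d3ag3 (Wt1, Gata4, Nr5a1, Amhr2, Amh and Rspo1) and 3 lower (Star, Irx3 and Irx5). Over all tested genes, 25.7% were called higher and 44.8% lower in PGCLC_d3ag3, so the marker counts leaned the other way. Wt1 was at 0.0396 and 0.0614 TPM in PGCLC_d3 and 1.28 and 1.17 in PGCLC_d3ag3, and Amhr2 at 0.43 and 0.398 and 3.74 and 4.26. Of the 20 markers, 7 reached 1 TPM in both PGCLC_d3 libraries and 9 in both PGCLC_d3ag3 libraries. The part of gonadal cells in the PGCLC_d3ag3 values was not tested. The haemoglobin gene Hba-a1 was at 44.1 and 35.5 TPM in PGCLC_d3ag3 and 2.12 and 0.754 in PGCLC_d3.

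Immediate early genes respond within minutes to growth factors and also to the dissociation and sorting of cells. Of 21 tested members, 10 were separated and higher in PGCLC and 1 lower. Fos was at 10.7 and 3.09 TPM in ESC, 7.07 and 8.75 in EpiLC, 65.2 and 69.6 in PGCLC_d3 and 264 and 262 in PGCLC_d3ag3. Egr2 was at 0.29 and 0.165 TPM in ESC, 0.276 and 0.516 in EpiLC, 3.4 and 4.06 in PGCLC_d3 and 17.9 and 17.3 in PGCLC_d3ag3, also highest in PGCLC_d3ag3, while Btg2, which restrains proliferation, was at 0.714 and 0.661 TPM in ESC, 7.52 and 8.47 in EpiLC, 102 and 101 in PGCLC_d3 and 48.4 and 51.8 in PGCLC_d3ag3 and highest in PGCLC_d3. Dusp1, a phosphatase gene of the MAP kinases, ranged over 1.19 to 3.51 TPM in the pluripotent libraries and 23.4 to 35 in the PGCLC libraries. Only the PGCLC groups are described as sorted, so cell state and sorting cannot be told apart for these genes. Klf6 was the lower member (44.5 to 95.1 TPM in the pluripotent libraries and 16.1 to 25.7 in the PGCLC libraries).

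Chromatin regulators showed few large separated differences. Histone methylation genes gave 4 of 35 tested members separated and higher and 6 of 35 lower. Smyd2, a lysine methyltransferase gene, was at 46.8 and 52.6 TPM in ESC, 11.7 and 13.5 in EpiLC, 156 and 174 in PGCLC_d3 and 132 and 158 in PGCLC_d3ag3, the widest of them. Ehmt1, which makes the repressive histone mark H3K9me2 and is known to fall in mouse germ cells, ranged over 54.8 to 75.8 TPM in the pluripotent libraries and 35.4 to 44.5 in the PGCLC libraries (difference -0.68, SE 0.0528, adjusted p = 9.9e-07). Ezh2, the catalytic subunit of Polycomb complex PRC2, was not separated and not called (adjusted p = 0.83). It was called lower after median-of-ratios scaling (-0.19, adjusted p = 0.0057) and quantile normalization (-0.16, adjusted p = 0.018). Its partners Eed (88.3 to 111 against 119 to 166 TPM, pluripotent against PGCLC) and Suz12 (51.4 to 64.8 against 71.5 to 78.6 TPM) were higher, though neither was separated after median-of-ratios scaling, and Jarid2 was lower (163 to 214 against 95.8 to 144 TPM). For PRC1.6 and other repressors of germline genes, 3 of 17 tested members were separated and higher and 3 of 17 lower. E2f6 (30.9 to 36.5 against 48 to 64.6 TPM), Rnf2 (96.3 to 118 against 158 to 233 TPM) and Yaf2 (30.9 to 46 against 57.6 to 132 TPM) were higher, and Max (45.9 to 68.3 against 34.2 to 41.7 TPM) and Kdm5c (40.5 to 63.1 against 12.1 to 27.1 TPM) lower. Smarca2, an ATPase of the SWI/SNF complex, ranged over 5.91 to 8.91 TPM in the pluripotent libraries and 31.7 to 35.4 in the PGCLC libraries.

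Separated genes were still free to change within a side. PGCLC_d3ag3 and PGCLC_d3 differed by limma in 70.4% of all tested genes (25.7% higher and 44.8% lower in PGCLC_d3ag3), in 62.9% of the separated and called higher genes and in 58.7% of the lower ones. EpiLC and ESC differed in 67.3% of all tested genes, in 55.0% of the higher and 65.9% of the lower ones. Genes called in neither step made up 10.3% of all tested genes, 598 (17.0%) of the higher and 276 (14.0%) of the lower ones. These shares describe genes selected for little spread relative to their difference, and no test was made of them.

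The separated genes with the widest gap relative to the larger range within a side are those that come closest to a uniform 2-level pattern. Among genes higher in PGCLC they were Nkx6-2, Tax1bp1, Npnt, Cspp1 and Asic2. Nkx6-2, a homeobox gene known from the nervous system, was at 0.251 and 0.458 TPM in ESC, 0.216 and 0.251 in EpiLC, 25.7 and 21.5 in PGCLC_d3 and 26.5 and 25.5 in PGCLC_d3ag3. Tax1bp1, a receptor gene of selective autophagy, was at 112 and 112 TPM in ESC, 109.8 and 118 in EpiLC, 279 and 287 in PGCLC_d3 and 278 and 297 in PGCLC_d3ag3, a difference of 1.33 (SE 0.0408, adjusted p = 1.5e-09). Cspp1, a gene of centrosome and cilium, ranged over 20.5 to 22.5 TPM in the pluripotent libraries and 61.4 to 64.9 in the PGCLC libraries. The spread within a side was small beside the difference between the sides, which is what the ratio selects. Among genes lower in PGCLC they were Kat14, Actr2, Mlf2, Ldha and Ap2m1. Mlf2 was at 1218 and 1252 TPM in ESC, 1336 and 1309 in EpiLC, 156 and 159.9 in PGCLC_d3 and 176 and 179 in PGCLC_d3ag3, a difference of -2.92 (SE 0.0325, adjusted p = 6.6e-12). Actr2, a subunit gene of the ARP2/3 complex that branches actin filaments, was at 415 and 446 TPM in ESC, 424 and 436 in EpiLC, 57.3 and 57.3 in PGCLC_d3 and 50.5 and 49.7 in PGCLC_d3ag3. Kat14, a subunit gene of an acetyltransferase complex, ranged over 55.3 to 58.2 TPM in the pluripotent libraries and 18.7 to 19.7 in the PGCLC libraries, and Ap2m1, a clathrin adaptor gene, over 552 to 569.5 TPM in the pluripotent libraries and 247 to 264 in the PGCLC libraries. Within a side the libraries of these 5 genes differed far less than the sides did.

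**Figure D5:**
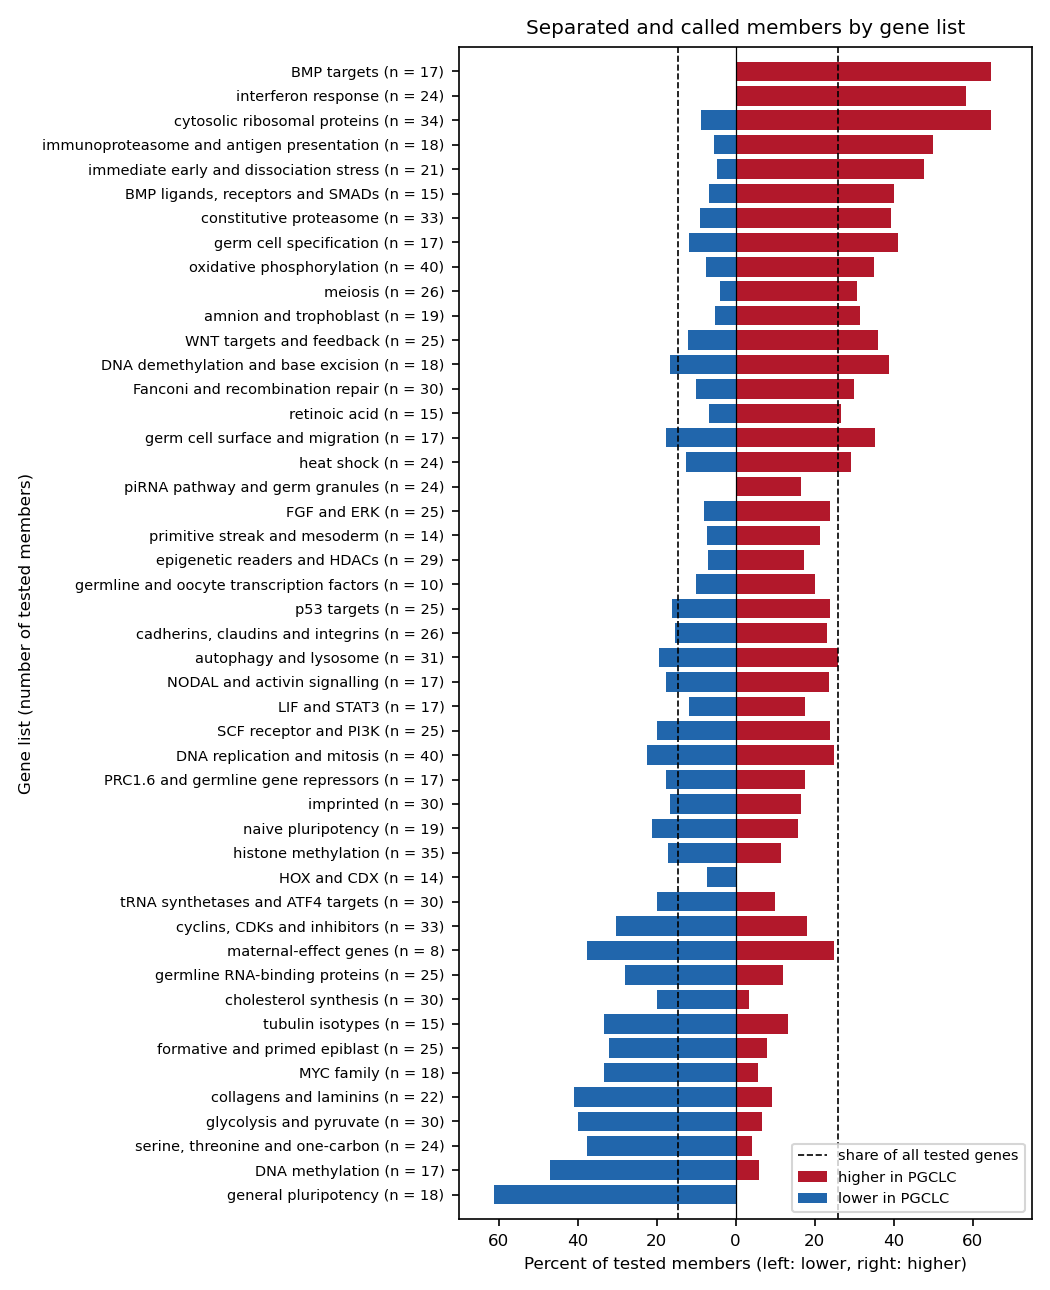
Percent of the tested members of each gene list that were separated and called higher (red, to the right) or lower (blue, to the left) in PGCLC, with dashed lines at the shares of all tested genes, 25.9% and 14.5%. BMP targets (11 of 17) and interferon response genes (14 of 24) reach far to the right with no separated lower member. General pluripotency (11 of 18) and DNA methylation genes (8 of 17) reach far to the left.

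A stricter reading counts the spread between the 2 states of a side as error. The fit of 2 sides of 4 libraries called 2980 genes higher (22.0%) and 1583 lower (11.7%). It called 2953 (83.9%) of the separated and called higher genes and 1551 (78.6%) of the lower ones. Of the named genes, 296 were separated and called, and 21 of them were not called in that fit.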

How the data were processed

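Bulk RNA of 8 libraries was amplified with SMART-Seq v4, per the labels' protocols, a kit that does not mark strand, so overlapping antisense genes cannot be told apart. Reads were trimmed with cutadapt 1.1.6, aligned to rn7 by HISAT2 2.1.0, and counted per gene by featureCounts (Subread 1.6.5), per the submitters' processing notes. The values the authors deposited are log2(TPM+1), a log2 scale without read totals. The table holds 22228 named genes, and 11066 rows without a name were left out.

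Groups came from the sample titles. limma 3.58.1 in R 4.3.3 fitted 4 groups (trend on, 4 residual degrees of freedom, median prior 5.46, median residual SD 0.104), and was tested on simulated data. Members and gene lists were chosen with earlier results of these data known. Named genes are preselected genes, the 12 widest gaps in each direction with at least 10 TPM on the higher side, the 5 widest relative to range, and up to 4 separated members of a list in each direction; a few of them are not reported here. Alternatives were filters, pseudocount 0.1, 2 scalings, a fit of 2 sides, no trend, a replicate block and leaving out each library. Replicate numbers did not pair libraries (correlations of deviations -0.0374 to 0.0662). Promoter windows came from RefSeq (GRCr8), which had one for 75.7% of tested genes, so a comparison over all separated genes is void.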

Additional observations from a re-analysis of the deposited data

How the results depend on the processing

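Most counts kept within 1.5 times of the main value under the alternatives run. A fit of 2 sides of 4 libraries called 2980 genes higher and 1583 lower, against 6606 and 4547, since it counts the spread between states as error. Asking for a log2 difference of at least 1 left 2072 and 1473, and a gap of at least 1 left 641 and 360 of the separated genes. Leaving out each library in turn gave 6013 to 6526 higher and 4108 to 4605 lower calls, 3527 to 3790 and 1977 to 2094 separated genes, and, among separated genes, 2780 to 3576 called between the PGCLC groups and 2813 to 3680 called between ESC and EpiLC. A group left with 1 library is assumed to vary like the others. Leaving out a library cannot undo a separation, so a gene can be lost only through its call or the filter. The counts of separated and kept genes are therefore no check of the separation rule. Of the separated and called genes, 3333 higher and 1855 lower ones were kept in all 8 of these fits.

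With the replicate number as a block, 6626 genes were higher and 4557 lower, and 3390 and 3246 separated genes were called between the PGCLC groups and between ESC and EpiLC. The numbers gave no sign of pairing. Mycn turned from 0.03 to -0.16 with median-of-ratios scaling, and Tet2 from -0.09 to 0.28 with pseudocount 0.1, and the cause was not tested. Of 296 named genes separated and called, 14 were no longer separated after median-of-ratios scaling and 10 after quantile normalization. The median difference of all tested genes was 0.16, and -0.006 and 0.024 after these scalings, so small differences of the higher genes are the least firm. TPM gives no depth, and values under 1 TPM carry an unknown counting error.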

Other observations

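Several groups outside the main account were also separated in part. Cytosolic ribosomal protein genes gave 22 of 34 tested members separated and higher and 3 of 34 lower, constitutive proteasome subunits 13 of 33 and 3 of 33, and oxidative phosphorylation genes 14 of 40 and 3 of 40. All 3 leans turned with median-of-ratios scaling, to 3 higher and 5 lower, 2 and 6, and 4 and 5, but not with quantile normalization (23 and 3, 12 and 3, 14 and 3). Rps18 (906 to 1166 against 1536 to 1923 TPM, pluripotent against PGCLC) and Sdha (265 to 332 against 516 to 567 TPM) were higher, and Rps2 (430.4 to 477 against 174 to 234 TPM) and Atp5pb (716 to 1024 against 358 to 499 TPM) lower. Levels in the ribosomal and tubulin families are uncertain, since related copies can share reads.

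Of the tubulin isotypes 5 of 15 tested members were separated and lower. Tubb2a was at 298 and 278 TPM in ESC, 36.5 and 29.1 in EpiLC, 3.74 and 4.46 in PGCLC_d3 and 3.48 and 3.17 in PGCLC_d3ag3, and Tubb2b ranged over 41.5 to 271 TPM in the pluripotent libraries and 6.11 to 8.16 in the PGCLC libraries. Heat shock genes gave 7 of 24 tested members higher and 3 of 24 lower. The small heat shock gene Hspb1 was at 6.46 and 10.5 TPM in ESC, 2.43 and 0.988 in EpiLC, 324 and 296 in PGCLC_d3 and 181 and 188 in PGCLC_d3ag3, the widest of them, and the chaperone Hsp90aa1 ranged over 1319.6 to 1636 TPM in the pluripotent libraries and 611 to 1079.9 in the PGCLC libraries. Autophagy and lysosome genes gave 8 of 31 higher and 6 of 31 lower. The autophagy receptor gene Calcoco2 was at 2016 and 2256 TPM in ESC, 26.9 and 23.5 in EpiLC, 2.55 and 0.683 in PGCLC_d3 and 1.97 and 2.2 in PGCLC_d3ag3, far higher in ESC than in the other groups, while the lysosomal gene Grn ranged over 179 to 230.5 TPM in the pluripotent libraries and 463 to 862 in the PGCLC libraries. Aminoacyl-tRNA synthetases and ATF4 targets gave 3 of 30 higher and 6 of 30 lower, with Atf4 itself lower (550.0 to 676 TPM in the pluripotent libraries and 180.0 to 433 in the PGCLC libraries).

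Imprinted genes gave 5 of 30 tested members higher and 5 of 30 lower. Peg3 was at 8.55 and 10.9 TPM in ESC, 12 and 13.2 in EpiLC, 412 and 444 in PGCLC_d3 and 64.8 and 59.5 in PGCLC_d3ag3, and Ndn ranged over 4.64 to 14.7 TPM in the pluripotent libraries and 31.9 to 42.8 in the PGCLC libraries. Of the HOX and CDX genes 1 of 14 tested was separated, Hoxa7, with 102 and 92.4 TPM in ESC and under 1 TPM in the other 3 groups. Its gap of 0.11 lay between values under 1 TPM, and the fit of 2 sides did not call it (adjusted p = 0.1). By limma alone, 12 of the 14 were called lower and 1 higher, against 33.5% and 48.7% of all tested genes. Endoderm markers gave 5 of 7 tested members separated and higher, Cxcr4 among them, and limma called the other 2, Foxa2 and Hnf4a, lower. Of the 5, Foxa1 had a gap of only 0.07 and was not called in the fit of 2 sides (adjusted p = 0.11). Between the PGCLC groups, limma called 5 of the 7 tested markers lower in PGCLC_d3ag3 and 0 higher. Over all tested genes, 44.8% were called lower and 25.7% higher. Sox17, a transcription factor gene of endoderm that also specifies human germ cells, was at 1.09 and 1.15 TPM in ESC, 0.676 and 0.639 in EpiLC, 57.5 and 45 in PGCLC_d3 and 9.41 and 10.7 in PGCLC_d3ag3. The defining endoderm secretory gene Afp stayed under 1 TPM in all 8 libraries. Mesoderm and amnion lists held both directions: Gata4 (0 to 0.232 against 2.55 to 5.12 TPM), Snai2 (0.109 to 0.99 against 6.7 to 10.5 TPM) and Ascl2 (0 to 1.64 against 5.9 to 11.3 TPM) were higher, and Eomes was lower at 27.1 and 27.1 TPM in ESC, 45.8 and 44.4 in EpiLC, 1.9 and 1.48 in PGCLC_d3 and 0.254 and 0.342 in PGCLC_d3ag3. Neural ectoderm markers moved both ways: of 4 tested, limma called 2 higher and 2 lower. Neurog2 was listed at 0 in all 4 pluripotent libraries and ranged over 1.61 to 2.88 TPM in PGCLC, and Nes was higher too. Sox1 (0.149 to 5.09 TPM in the pluripotent libraries) was listed at 0 in all 4 PGCLC libraries. Sox3 was called lower (difference -2.82) but was not separated.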
